A study of Mus musculus with 8 samples.

Results

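The genes described are 10 regulators of striated muscle mass, chosen by symbol: the ubiquitin ligase genes Fbxo32, Trim63 and Fbxo40, the related Trim54 and Trim55, the secreted growth inhibitor Mstn, the transcription factors Foxo1, Foxo3 and Klf15, and the stress-induced growth inhibitor Ddit4. All 10 were matched among the 49315 gene identifiers of the deposited tables, and all 10 passed the filter on low counts that left 17179 genes. RNA of the whole mouse esophagus was measured in 8 libraries, all labelled WT (wild type) and day 14, 5 on untreated water and 3 that drank 0.5% SDS (sodium dodecyl sulfate, a detergent) for 14 days. Strain, age and sex were not stated. Whether every library came from its own mouse is not labelled either, and the p-values therefore cover only library-to-library spread, which may be technical.

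The wall of the mouse esophagus contains striated muscle, which shares fibre proteins with limb muscle. When such muscle wastes, proteins are tagged with ubiquitin by muscle-specific ligases and are broken down by the proteasome. FOXO transcription factors switch the ligase genes on and are kept out of the nucleus by insulin-like growth factor and AKT signalling, while glucocorticoids act through their receptor on Klf15, Ddit4 and the ligase genes. Myostatin, the product of Mstn, signals through activin receptors and SMAD proteins to limit muscle growth and is bound by follistatin.

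Libraries held 22033866 to 29802362 counts. Marker genes of skeletal muscle (19 of 19 tested) summed to between 38799 and 52252 CPM (counts per 1000000, after TMM scaling of the library sizes) in the controls and between 17972 and 32647 CPM in the SDS libraries, without overlap. Keratinocyte markers summed to 43492 to 141413 CPM in controls and 93856 to 156728 CPM in SDS, and adipocyte markers, of which 10 of 11 were tested, to 298 to 6898 CPM and 299 to 2057 CPM. Smooth muscle markers lay at 3013 to 8397 CPM in controls and 1988 to 4255 CPM in SDS, fibroblast markers at 1762 to 2370 CPM and 749 to 5803 CPM, and leukocyte markers at 173 to 276 CPM and 301 to 1068 CPM. Cardiac markers, of which 9 of 10 were tested, summed to 1255 to 1542 CPM in controls and 763 to 1035 CPM in SDS, without overlap, and among them Nppa and Nppb stayed under 1 CPM in every library. Control library 4 stood apart by its fat markers. In whole tissue, fewer muscle fibres and less of an RNA per fibre cannot be told apart.

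All 10 code for proteins, and positions are given on mm10 as in the deposited files, where exons were counted. Fbxo32 (ENSMUSG00000022358) lies on chromosome 15 from 58175879 to 58214892, Trim63 (ENSMUSG00000028834) on chromosome 4 from 134315120 to 134329629, Fbxo40 (ENSMUSG00000047746) on chromosome 16 from 36963460 to 36990467, and Ddit4 (ENSMUSG00000020108) on chromosome 10 from 59949675 to 59951770. Trim54 spans 31116712 to 31137630 on chromosome 5, Trim55 19644474 to 19692421 on chromosome 3, Mstn 53061640 to 53068079 on chromosome 1, and Klf15 90462576 to 90475238 on chromosome 6. Foxo1 spans 52268336 to 52353221 on chromosome 3 and Foxo3 42181841 to 42276755 on chromosome 10. The spans of Fbxo32, Trim54 and Foxo1 are overlapped by antisense genes (by 418, 1592 and 1001 bp), and the strand setting is not given, so reads of such partners cannot be told apart. The antisense partners held 156, 723 and 0 counts over the 8 libraries, against 3003 to 5222 counts of Trim54 in each control. Ckm, used as a divisor below, is overlapped by an antisense gene by 3952 bp. That gene held 2399 counts over the 8 libraries, against 52509 to 172831 counts of Ckm in each library. Genes on the same strand overlap Trim55 (598 bp, 202 counts) and Foxo1 (2069 bp, 8 counts).

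Promoter windows of 250 bases before the start site are shown for Trim63 and Fbxo40, the ligase genes with the lowest p-values among those with an entry, and for Klf15, whose values followed another order. They come from RefSeq on GRCm38.p6, where 8 of the 10 genes had an entry, and are written 5′ to 3′ on the strand of the gene. Capitals mark the FOXO core GTAAACA, the glucocorticoid receptor half-site AGAACA, the E-box of myogenic factors CAGCTG and the E-box of clock factors CACGTG, each searched on both strands. The motifs were chosen with the windows in view.
Trim63, chr4:134314870-134315119, plus strand: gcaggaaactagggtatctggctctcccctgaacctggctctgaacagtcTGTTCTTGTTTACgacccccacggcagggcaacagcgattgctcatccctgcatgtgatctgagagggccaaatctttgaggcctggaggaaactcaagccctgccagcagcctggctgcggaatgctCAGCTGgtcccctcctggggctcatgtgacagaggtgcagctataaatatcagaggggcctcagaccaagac
Fbxo40, chr16:36990468-36990717, minus strand: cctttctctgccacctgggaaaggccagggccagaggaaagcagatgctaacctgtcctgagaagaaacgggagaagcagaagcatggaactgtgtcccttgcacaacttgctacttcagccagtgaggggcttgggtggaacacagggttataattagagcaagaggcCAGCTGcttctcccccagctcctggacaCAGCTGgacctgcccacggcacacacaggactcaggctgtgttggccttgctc
Klf15, chr6:90462326-90462575, plus strand: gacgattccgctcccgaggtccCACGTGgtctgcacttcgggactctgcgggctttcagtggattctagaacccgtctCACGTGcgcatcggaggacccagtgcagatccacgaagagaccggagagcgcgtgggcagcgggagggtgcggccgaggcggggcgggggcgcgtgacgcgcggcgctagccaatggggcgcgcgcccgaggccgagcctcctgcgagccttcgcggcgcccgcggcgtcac
In Trim63 the half-site begins 200 bases and the FOXO core 194 bases before the start, side by side without overlap, and the myogenic E-box begins 72 bases before it. Of the 8 genes, only Trim63 had a FOXO core in its window, which 3.17% of 32851 windows hold. The half-site is in 16.1% of windows and the myogenic E-box in 13.0%. The Fbxo40 window shown, the outer of 2 starts in the table, holds 2 myogenic E-boxes, beginning 81 and 53 bases before the start. Klf15 has 2 clock E-boxes, 228 and 172 bases before its start, a motif found in 6.02% of windows. A match describes letters and is not evidence of binding.

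Members differed widely in level. Per kilobase of exon, the mean control level was highest for Trim54, a MuRF family protein that binds the sarcomere and microtubules, at 100 ± 18.1 CPM per kilobase (SD, n = 5). Fbxo32 followed at 30.8 ± 5.22, Ddit4 at 24.1 ± 5.77 and Trim63 at 16.5 ± 3.33 CPM per kilobase (SD, n = 5). Then came Mstn at 11.7 ± 3.52, Foxo3 at 11.3 ± 1.70, Trim55 at 10.1 ± 1.49, Klf15 at 8.78 ± 2.06 and Fbxo40 at 7.01 ± 1.12 CPM per kilobase (SD, n = 5). Foxo1 was lowest at 4.08 ± 0.143 CPM per kilobase (SD, n = 5). The control ranges of Trim54 and Fbxo32 did not overlap, nor did those of Fbxo40 and Foxo1, while every other pair of neighbours in this order overlapped. For comparison Ckm, the muscle creatine kinase gene, stood at 1643 ± 315 CPM per kilobase (SD, n = 5).

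The comparison of SDS with control asks here whether these regulators of muscle mass differed after the detergent. The ligase genes, their relatives and Mstn were all lower in the SDS libraries (log2 fold changes of -0.90 to -0.60), Ddit4 was higher (0.70), and Foxo1, Foxo3 and Klf15 had values of -0.18, -0.15 and -0.19. By edgeR's quasi-likelihood test with Benjamini-Hochberg adjustment over all genes, 0 of the 10 passed 0.05, where 1.05% of all tested genes did (180 of 17179, with 0.425% lower and 0.623% higher). At an unadjusted p under 0.05 there were 7 lower and 1 higher member, against 18.5% of all tested genes in either direction and 8.53% lower. The median log2 fold change of the 10 was -0.63, beside -0.0047 for all tested genes. DESeq2 called 5 members, Fbxo32, Trim63, Trim54 and Fbxo40 lower and Ddit4 higher, against 9.76% of the genes it tested (4.55% lower, 5.21% higher), and limma-voom called 0, against 0.71%.

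Fbxo32 encodes atrogin-1, the F-box subunit of a muscle ubiquitin ligase. It measured 266, 202, 220, 165 and 216 CPM in control libraries 1 to 5 and 176, 130 and 116 CPM in SDS libraries 1 to 3. The highest SDS library lay above control library 4, so the ranges overlapped. Its log2 fold change came to -0.60 ± 0.19 (SE; edgeR quasi-likelihood adjusted p = 0.143), and the 95% interval ran from -1.04 to -0.17.

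Trim63 encodes MuRF1, a RING ligase of the sarcomere whose known targets include thick filament proteins. The control libraries held 57.2, 52.7, 48.6, 43.3 and 32.6 CPM and the SDS libraries 31.4, 28.7 and 15.02 CPM. The 3 SDS libraries were below all 5 controls, with SDS library 1 close under control library 5. Its log2 fold change of -0.90 ± 0.26 (SE) was the lowest of the 10 (edgeR quasi-likelihood adjusted p = 0.122).

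Fbxo40, a muscle F-box gene whose product targets the insulin receptor substrate IRS1, had the smallest p of the 10. It stood at 48.7, 40.5, 34.0, 34.6 and 35.5 CPM in controls and at 30.1, 24.4 and 18.5 CPM in SDS, again without overlap. The log2 fold change was -0.67 ± 0.18 (SE; edgeR quasi-likelihood adjusted p = 0.107).

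Trim54 and Trim55, which encode MuRF3 and MuRF2, went the same way. Trim54 measured 178, 154, 122, 151 and 115 CPM in controls and 109, 76.0 and 48.5 CPM in SDS (log2 -0.89 ± 0.26, SE). Trim55 measured 33.3, 26.8, 23.4, 26.5 and 23.8 CPM in controls and 21.9, 18.2 and 8.18 CPM in SDS (log2 -0.73 ± 0.29, SE). Neither pair of ranges overlapped, and neither gene passed (edgeR quasi-likelihood adjusted p = 0.126 and 0.222).

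Mstn, the myostatin gene, stood at 27.95, 48.7, 28.4, 28.2 and 25.6 CPM in controls and 21.7, 21.6 and 17.3 CPM in SDS. Control library 2 was far above the other 4, and the SDS libraries lay below all controls. The log2 fold change was -0.65 ± 0.22 (SE; edgeR quasi-likelihood adjusted p = 0.166), and -0.45 without control library 2 (adjusted p = 0.165), over alternatives whose adjusted p ran from 0.0719 to 0.350.

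For 6 of the 10 members all SDS libraries lay below all controls, against 6.89% of all tested genes: Trim63, Trim54, Trim55, Fbxo40, Mstn and Foxo1. The same held for 14 of the 19 skeletal muscle markers, whose median log2 fold change was -0.78. In the SDS group Fbxo32, Trim63, Fbxo40, Trim54, Trim55 and Mstn each ranked library 1, then 2, then 3, the order of the summed muscle markers (32647, 26704 and 17972 CPM). Among the controls the markers summed to 52252, 50375, 38805, 42364 and 38799 CPM in libraries 1 to 5. Only Trim54 of these genes had that order there. The part of muscle content in these differences was not tested, and values relative to Ckm follow.

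**Figure D1:**
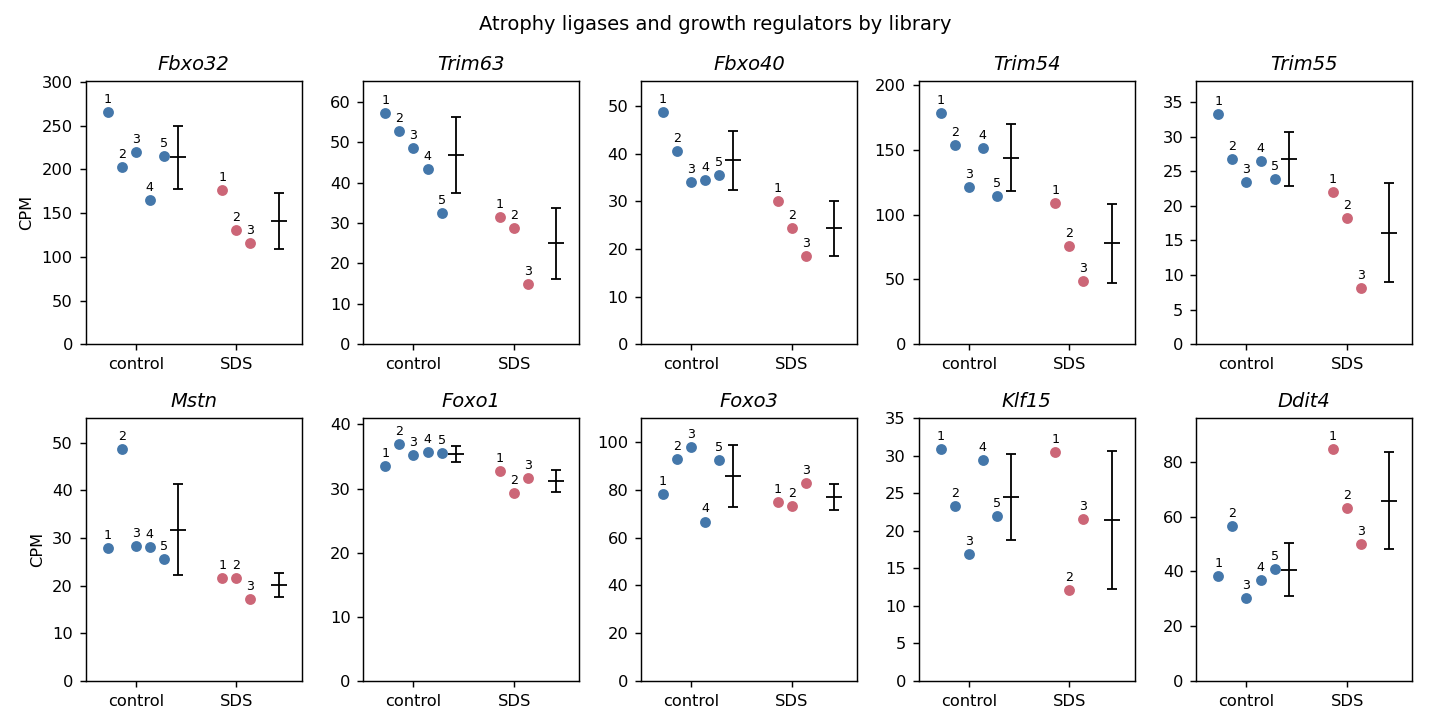
CPM of the 10 genes in each library (blue points, 5 controls; red points, 3 SDS libraries; numbers are the library numbers; black bars, mean and SD; all axes start at 0). The ligase genes and Mstn lie lower in SDS, with Trim63 at 15.02 to 31.4 CPM against 32.6 to 57.2 CPM, and Ddit4 lies higher, at 49.8 to 84.6 against 30.3 to 56.5 CPM.

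None of the 3 transcription factors passed. Foxo1 was the steadiest member, at 33.5, 36.9, 35.2, 35.7 and 35.5 CPM in controls, a coefficient of variation of 3.51%. Its SDS libraries held 32.7, 29.3 and 31.7 CPM, just below the lowest control, with a log2 fold change of -0.18 ± 0.08 (SE; edgeR quasi-likelihood adjusted p = 0.269). Foxo3, the FOXO member best known for driving atrogin-1, measured 78.4, 93.1, 98.1, 66.8 and 92.4 CPM in controls and 74.9, 73.2 and 83.0 CPM in SDS. These ranges overlapped (log2 -0.15 ± 0.14, SE), and the interval, -0.47 to 0.16, holds no change as well as a modest decrease.

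Klf15, a Krüppel-like factor induced by glucocorticoids in muscle and fat, varied within both groups. It stood at 31.0, 23.3, 16.9, 29.4 and 21.9 CPM in controls and 30.6, 12.2 and 21.6 CPM in SDS (log2 -0.19 ± 0.30, SE). The adipocyte markers summed to 1826, 440, 298, 6898 and 1117 CPM in the same controls and 2057, 299 and 582 CPM in the SDS libraries. Both were lowest in control library 3 within the controls, and both had the order library 1, 3, 2 within SDS. The part of attached fat in the Klf15 values was not tested. Without SDS library 2 the log2 fold change turned to 0.09.

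Ddit4 encodes REDD1, which restrains the growth kinase complex mTORC1 under stress and is not restricted to muscle. It was the single member higher in SDS, at 84.6, 63.0 and 49.8 CPM against 38.4, 56.5, 30.3, 37.0 and 41.0 CPM in controls. SDS library 3 lay under control library 2. The difference came to 0.70 ± 0.22 on the log2 scale (SE; edgeR quasi-likelihood adjusted p = 0.144). DESeq2 gave an adjusted p of 0.0481, the lowest of 17 alternatives that reached 0.348. Of 10 keratinocyte markers 1 passed by edgeR's test and 0 by limma-voom, and their summed levels overlapped between groups. The 1 that passed, the basal keratin Krt14, measured 5036, 4008 and 1094 CPM with SDS and 325 to 822 CPM in controls. Within SDS, both Krt14 and the summed skeletal muscle markers (32647, 26704 and 17972 CPM) had the library order of Ddit4. The summed keratinocyte markers had the reverse order (93856, 97218 and 156728 CPM). Whether Ddit4 came from epithelium or muscle was not tested.

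To set the members against the amount of striated muscle RNA, each count was divided by the Ckm count of its library. Ckm itself measured 5899, 5653, 4335, 4029 and 4017 CPM in controls and 3241, 2260 and 2190 CPM in SDS (log2 -0.90 ± 0.23, SE; edgeR quasi-likelihood adjusted p = 0.0901), with no overlap. On this scale the median of all tested genes moved to 0.90 on the log2 scale, and 63.1% of all tested genes passed, nearly all of them higher (63%; 10825 higher and 7 lower). A call on the Ckm scale therefore says little of a member, and the values are read beside that median. The single gene Ckm is the divisor, and its deviation in a library also enters every ratio.

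Relative to Ckm, the ligase genes, their relatives and Mstn had log2 fold changes of -0.02 to 0.28, beside a median of 0.90 for all tested genes. Their values were higher than those of 4.0% to 9.5% of the tested genes. Each 95% interval held 0, and together they reached from -0.57 to 0.82, so a moderate change in either direction is not excluded. Trim63 stood at 9.69, 9.33, 11.2, 10.8 and 8.12 counts per 1000 Ckm counts in controls and 9.69, 12.7 and 6.86 in SDS. Its log2 fold change on the Ckm scale was -0.01 ± 0.26 (SE), with an interval from -0.56 to 0.53. Trim54 had a log2 fold change of -0.02 ± 0.26 on this scale and Trim55 one of 0.13 ± 0.28 (SE). In both, as in Trim63, SDS library 3 was the lowest of all 8 libraries and lay below every control: 22.1 counts per 1000 Ckm counts for Trim54 and 3.73 for Trim55.

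The F-box genes Fbxo32 and Fbxo40 and the growth inhibitor Mstn overlapped between groups on this scale. Fbxo32 measured 45.1, 35.8, 50.8, 41.0 and 53.7 counts per 1000 Ckm counts in controls and 54.4, 57.6 and 52.9 in SDS (log2 0.28 ± 0.26, SE, interval -0.26 to 0.82). Fbxo40 measured 8.26, 7.17, 7.85, 8.58 and 8.85 in controls and 9.29, 10.8 and 8.46 in SDS (log2 0.22 ± 0.25, SE). Its coefficient of variation among controls was 16% in CPM and 8.09% relative to Ckm, the smallest of the 10. Mstn measured 4.74, 8.61, 6.54, 6.99 and 6.38 in controls and 6.68, 9.56 and 7.88 in SDS (log2 0.27 ± 0.27, SE). None of Trim63, Trim54, Trim55, Fbxo32, Fbxo40 and Mstn passed on the Ckm scale by the edgeR quasi-likelihood test (adjusted p of 0.339 or more), and DESeq2 and limma-voom called 3 members each, none of them among the 6.

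Foxo1, Foxo3, Klf15 and Ddit4 were higher relative to Ckm and passed. Foxo1 lay at 5.68 to 8.87 counts per 1000 Ckm counts in controls and at 10.1, 12.9 and 14.5 in SDS (log2 0.72 ± 0.26, SE). Foxo3 lay at 13.3 to 23.0 in controls and at 23.1, 32.4 and 37.9 in SDS (log2 0.76 ± 0.27, SE). Klf15 stood at 5.25, 4.12, 3.89, 7.30 and 5.46 in controls and 9.43, 5.38 and 9.85 in SDS (log2 0.66 ± 0.29, SE). All 3 values lay under the median of all tested genes on this scale, 0.90. Their calls did not hold with the geometric mean of the 19 muscle markers as the reference in place of Ckm (edgeR quasi-likelihood adjusted p = 0.0543, 0.0599 and 0.0783, in ranges over 15 alternatives of 0.00042 to 0.0963, 0.00022 to 0.117 and 0.0025 to 0.169).

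Ddit4 measured 6.51, 10, 6.99, 9.18 and 10.2 counts per 1000 Ckm counts in controls and 26.1, 27.9 and 22.8 in SDS, with no overlap. The log2 fold change on the Ckm scale was 1.58 ± 0.25 (SE), above the median of all genes, and it was higher than that of 92.0% of the tested genes. Ddit4 passed under each of the 15 alternatives of the Ckm scale, with log2 values of 1.49 to 1.73. In these alternatives 36.8% to 76.4% of all tested genes passed, so the passing itself says little of Ddit4. For 3 of the 10 members (Foxo1, Foxo3 and Ddit4) all SDS ratios lay above all control ratios, against 50.6% of all tested genes.

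**Figure D2:**
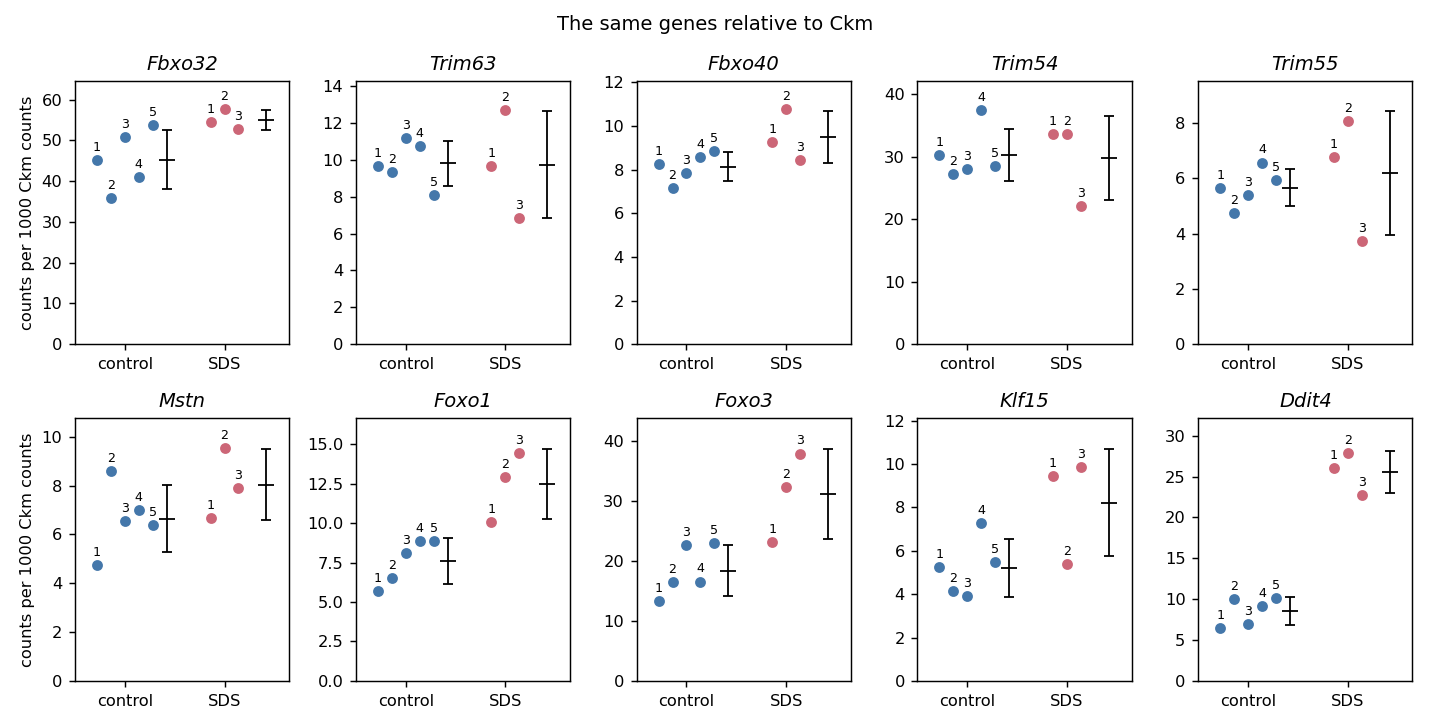
Counts of the 10 genes per 1000 Ckm counts in each library (points, numbers and bars as for the CPM plot; all axes start at 0). The ratios of the ligase genes and Mstn overlap between groups, while Ddit4 lies at 22.8 to 27.9 in SDS against 6.51 to 10.2 in controls.

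**Figure D3:**
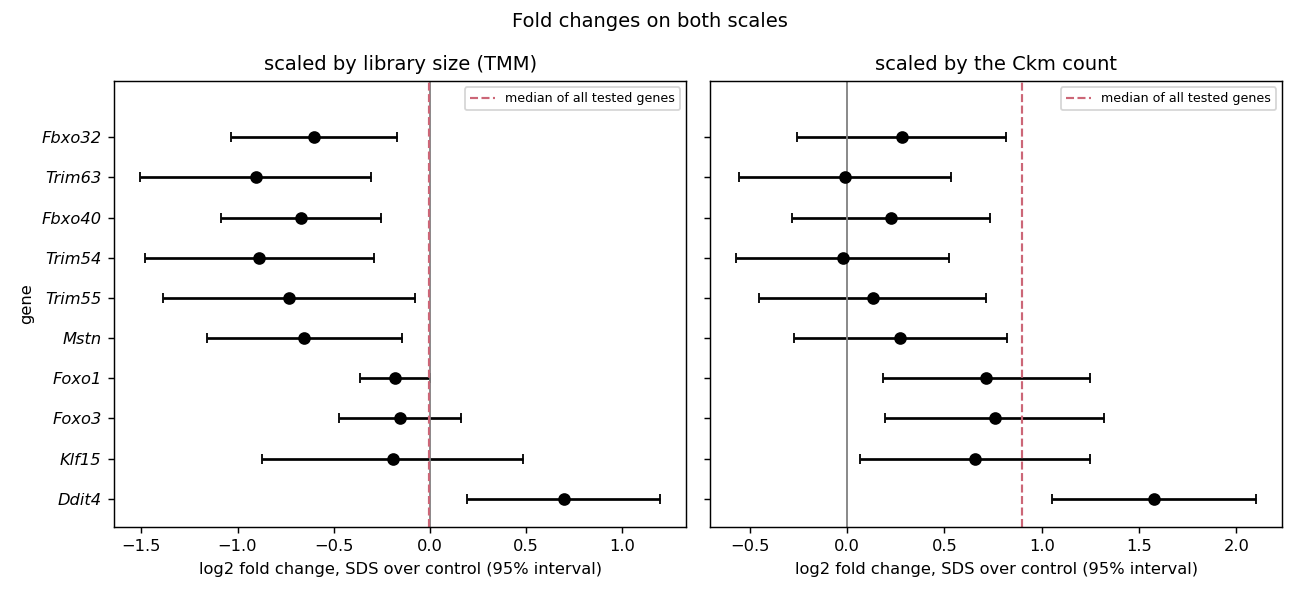
Log2 fold changes of SDS over control with 95% intervals, scaled by library size (left) and by the Ckm count (right); the dashed line is the median of all 17179 tested genes, -0.0047 on the left and 0.90 on the right. On the left the ligase genes and Mstn lie between -0.90 and -0.60, and on the right between -0.02 and 0.28.

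The members most like each other across the 8 libraries were Fbxo32, Trim63, Fbxo40, Trim54 and Trim55. The Pearson r of log2 CPM was 0.97 between Trim54 and Fbxo40, 0.96 between Trim54 and Trim55, and 0.95 between Trim63 and Trim54. Fbxo40 had an r of 0.96 with Ckm, Fbxo32 one of 0.91, Mstn one of 0.82 and Foxo1 one of 0.79. Mstn had an r of 0.59 with Fbxo32 and of 0.75 with Foxo1. Foxo3 had an r of 0.33 and Ddit4 one of -0.43 with Ckm. Klf15 was closer to the adipocyte gene Adipoq, which encodes adiponectin (r = 0.81), than to Ckm (r = 0.50). The libraries share muscle content, fat content and group, so these values describe 8 points only.

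Likeness was searched among 11183 other genes with a mean of at least 5 CPM, without genes named by a Gm number, a Rik name or an Ensembl identifier. The closest in pattern to Trim55 was Acta1, skeletal alpha-actin (r = 0.995), and to Trim54 it was Myl3, a slow and ventricular myosin light chain (r = 0.994). Fbxo40 was nearest to Rtn2 (r = 0.993) and Unc45b, a myosin chaperone (r = 0.993). Fbxo32 was nearest to Klhl33 (r = 0.986) and to Asb15, a muscle ankyrin-repeat adaptor (r = 0.959). Trim63 was nearest to Ankrd33b (r = 0.985) and to Klhl41, a sarcomere-associated kelch protein (r = 0.983). Mstn was nearest to Mrpl4, a mitochondrial ribosomal protein (r = 0.936), and Ddit4 to Foxq1 (r = 0.937). Foxo1, Foxo3 and Klf15 were nearest to Fam122a (r = 0.968), Rnf39 (r = 0.993) and Ndufaf3 (r = 0.974).

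The counts of the pathway lists are read against all tested genes, of which edgeR's test called 1.05%, 18.5% had an unadjusted p under 0.05 (8.53% lower), 6.89% had all SDS libraries below all controls, and DESeq2 called 4.55% lower and 5.21% higher. Of 28 further atrophy ligases and ubiquitin factors, 1 fell, 0 rose and 27 did not pass, with a median log2 fold change of -0.07. In this list 25 of 28 lay on the lower side, 5 were lower at an unadjusted p under 0.05, 6 lay below all controls, and DESeq2 called 3 lower. The gene that fell was Ube2d1, a ubiquitin-conjugating enzyme that works with MuRF1 among other ligases, with 35.8 ± 2.01 CPM in controls (SD, n = 5) and 24.3 ± 2.41 CPM in SDS (SD, n = 3), a log2 change of -0.56 ± 0.10 (SE; edgeR quasi-likelihood adjusted p = 0.0433; lower in 3 of 3 SDS libraries than in any control). None of 31 proteasome subunits passed by the edgeR quasi-likelihood test, DESeq2 or limma-voom, and 2 were higher at an unadjusted p under 0.05. Of the 31 subunits 25 lay on the higher side, with a median of 0.09, beside -0.0047 for all tested genes. For 7 of them all SDS libraries lay above all controls, and for 0 below. The share of all tested genes above all controls is not given here. The lowest p among them belonged to Psma7 (mean CPM of 129 for controls and 154 for SDS; log2 0.25 ± 0.10, SE) and Psma5 (log2 0.19 ± 0.08, SE). In the autophagy and lysosome list 1 of 18 fell, 0 rose and 17 did not pass (median 0.03), with 2 lower and 2 higher at an unadjusted p under 0.05 and 1 called in each direction by DESeq2. That gene was Tfeb, a transcription factor of lysosome genes, with 77.8 ± 7.997 CPM in controls (SD, n = 5) and, in SDS, 46.4 ± 5.08 CPM (SD, n = 3; log2 -0.75 ± 0.12, SE; edgeR quasi-likelihood adjusted p = 0.0368).

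Of 18 FOXO family members and targets, 0 passed by the edgeR quasi-likelihood test and 15 lay on the lower side (median -0.38). At an unadjusted p under 0.05, 7 of 18 were lower, against 8.53% of all tested genes. DESeq2 called 4 of 18 lower, against 4.55%, and limma-voom 0. Irs2, an insulin receptor substrate, stood at 23.8 ± 4.22 CPM (SD, n = 5) in controls and 14.2 ± 2.12 CPM (SD, n = 3) in SDS. Pdk4, which limits pyruvate oxidation in fasting muscle, measured 141, 73.5, 104, 131 and 78.1 CPM in controls and 49.0, 65.7 and 37.5 CPM in SDS, below all controls (log2 -1.05 ± 0.27, SE; edgeR quasi-likelihood adjusted p = 0.0973). Eif4ebp1, a translation repressor, did not separate the groups (log2 0.08 ± 0.22, SE).

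Of 18 glucocorticoid response genes 0 passed by the edgeR quasi-likelihood test (median 0.10). At an unadjusted p under 0.05, 3 were lower and 4 higher, against 18.5% of all tested genes in either direction. DESeq2 called 2 of 18 higher, against 5.21%, and limma-voom 0. Cebpd, a C/EBP transcription factor, had the smallest p and stood at 16.3, 16.7, 15.4, 21.5 and 28.8 CPM in controls and 45.8, 37.0 and 34.7 CPM in SDS (log2 0.99 ± 0.21, SE; edgeR quasi-likelihood adjusted p = 0.0652). Sgk1, a kinase related to AKT, had a log2 fold change of 0.37 ± 0.12 (SE). Fkbp5, a widely used readout of the glucocorticoid receptor, had one of -0.05 ± 0.21, and Tsc22d3, which encodes GILZ, one of 0.47 ± 0.25 (SE). The receptor gene Nr3c1 stood at 79.2 ± 13.3 CPM (SD, n = 5) in controls and 61.7 ± 1.04 CPM (SD, n = 3) in SDS, below all controls, and did not pass.

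In the myostatin and activin pathway 1 of 24 tested genes fell, 0 rose and 23 did not pass (median -0.11). In it 3 were lower at an unadjusted p under 0.05, 3 lay below all controls, and DESeq2 called 2 lower. Tdgf1, with 15 counts in all, was too low for the filter. The gene that fell was Fst, which encodes follistatin, the binding protein that blocks myostatin and activin. It measured 14.3, 13.8, 12.1, 15.4 and 12.2 CPM in controls and 7.03, 8.08 and 5.34 CPM in SDS, without overlap (log2 -0.99 ± 0.17, SE; edgeR quasi-likelihood adjusted p = 0.0420). Mstn, its ligand, had a log2 fold change of -0.65. Smad3, a signal carrier of the pathway, had a log2 fold change of -0.64 ± 0.16 and the receptor gene Acvr2b one of -0.48 ± 0.21 (SE), and neither passed.

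In the pathway of insulin-like growth factor, AKT and mTORC1, 2 of 28 fell, 0 rose and 26 did not pass (median -0.26). At an unadjusted p under 0.05, 8 were lower and 1 higher, 8 lay below all controls (against 6.89% of all tested genes), and DESeq2 called 6 lower (against 4.55%). Ddit4l, the REDD2 relative of Ddit4 found mainly in muscle, measured 48.2, 43.6, 46.9, 34.9 and 48.5 CPM in controls and 27.5, 19.7 and 22.7 CPM in SDS (log2 -0.93 ± 0.15, SE; edgeR quasi-likelihood adjusted p = 0.0368). Its direction was opposite to that of Ddit4, at 0.70. Relative to Ckm the log2 fold change was -0.05 for Ddit4l and 1.58 for Ddit4. Prkaa2, the alpha 2 catalytic subunit of AMP-activated kinase, fell, with 65.6 ± 6.28 CPM in controls (SD, n = 5) and, in SDS, 38.5 ± 2.95 CPM (SD, n = 3; log2 -0.77 ± 0.11, SE; edgeR quasi-likelihood adjusted p = 0.0303). Igf1, the growth factor gene, ranged from 9.38 to 51.7 CPM within the controls (log2 -0.31 ± 0.52, SE).

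Of 17 denervation and disuse genes 0 passed by the edgeR quasi-likelihood test (median -0.45). At an unadjusted p under 0.05, 5 of 17 were lower, against 8.53% of all tested genes. DESeq2 called 3 of 17 lower, against 4.55%, and limma-voom 0. Chrng, the fetal acetylcholine receptor subunit that returns on denervation, stood at 0.385 to 1.96 CPM in controls and 0.417 to 1.77 CPM in SDS. Myog, the myogenin gene, had a log2 fold change of -0.60 ± 0.36 and Chrna1, the receptor's alpha subunit, one of -0.57 ± 0.25 (SE). Ankrd1, a stretch-responsive ankyrin-repeat gene, had the smallest p, at 23.2, 15.6, 11.5, 22.3 and 14.4 CPM in controls and 7.47, 3.16 and 3.96 CPM in SDS (log2 -1.84 ± 0.35, SE; edgeR quasi-likelihood adjusted p = 0.0514). Csrp3, a muscle LIM protein gene, came next (log2 -0.89 ± 0.23, SE). Relative to Ckm the log2 fold change was -1.005 for Ankrd1 and 0.01 for Csrp3, on a scale where the median gene was at 0.90. Ankrd1 was the 1 gene of the list called lower on that scale by edgeR's quasi-likelihood test, and 3 were called higher. Of all tested genes, 7 were called lower there and 10825 higher. DESeq2 and limma-voom also called 1 gene of the list lower.

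Of 15 sarcomere and adaptor genes that work beside the MuRF and F-box proteins, 1 fell, 0 rose and 14 did not pass (median -0.74). At an unadjusted p under 0.05, 9 of 15 were lower (against 8.53% of all tested genes), 9 lay below all controls (against 6.89%), and DESeq2 called 9 lower (against 4.55%). The gene that fell was Myom2, an M-band protein gene, with 574 ± 54.3 CPM in controls (SD, n = 5) and, in SDS, 256 ± 66.5 CPM (SD, n = 3; log2 -1.16 ± 0.19, SE; edgeR quasi-likelihood adjusted p = 0.0355). Without control library 1, 2, 3 or 5, or without SDS library 2, each of the 6 genes called in these pathway lists missed the threshold. Ube2d1 and Fst also missed it without control library 4, and the 6 except Myom2 without SDS library 1. Over all alternatives their log2 fold changes kept their sign, at -0.64 to -0.50 for Ube2d1, -0.84 to -0.68 for Tfeb, -1.13 to -0.80 for Fst, -1.07 to -0.82 for Ddit4l, -0.81 to -0.70 for Prkaa2 and -1.38 to -1.01 for Myom2, with the highest adjusted p, in each case without SDS library 2, at 0.193, 0.182, 0.144, 0.170, 0.156 and 0.181.

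**Figure D4:**
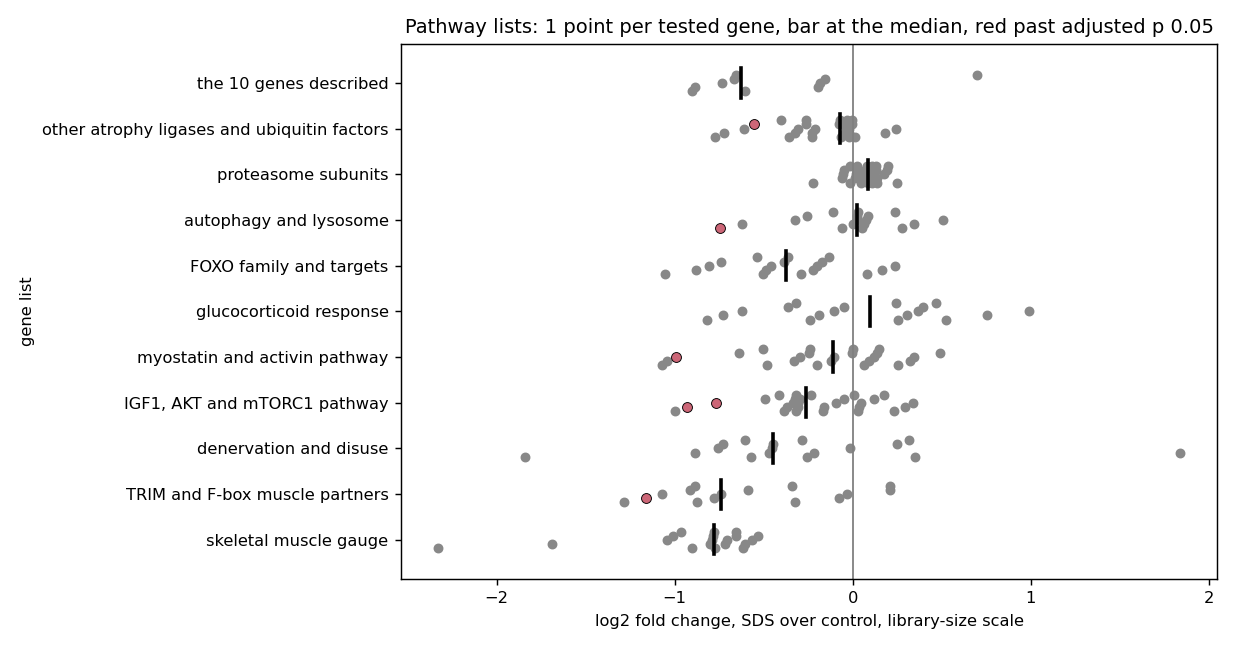
Log2 fold changes of SDS over control on the library-size scale, 1 point per tested gene in each list, with the list's median as a black bar and genes past an adjusted p of 0.05 in red. The 10 genes described have a median of -0.63, the skeletal muscle markers one of -0.78 and the proteasome subunits one of 0.09.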

How the data were processed

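The deposited files hold the authors' raw counts per gene, 1 table per library, on mm10. The tools named, per the submitters' processing notes, were STAR 2.6.1c, Subread, FastQC and bcl2fastq. For annotation release, strand setting and multi-mapping reads: not given in the sources used here. Per the labels' protocols, libraries were made from poly(A)-selected RNA with a NEBNext Ultra II kit. It names cell pellets as the input, where the treatment text has whole esophagus.

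Counts of the 5 control and 3 SDS libraries were compared with edgeR 4.0.16 (R 4.3.3; TMM, quasi-likelihood test, Benjamini-Hochberg over 17179 genes with a minimum count of 10 and total of 15), after a test on simulated data. The Ckm scale used log Ckm counts as the offset. Each SE of an edgeR log2 fold change was derived as its absolute value over the square root of the test's F statistic. The 95% intervals were built from that SE. DESeq2 1.42.0, limma-voom (limma 3.58.1), other scalings and filters, a replicate block and libraries left out were alternatives. Members and lists were chosen with earlier results of these data known. Named from each list were the genes past the threshold, those with the smallest p, and fixed reference genes. Library totals ran from 22033866 to 29802362 counts. No 2 libraries agreed within counting noise (chi-square per degree of freedom of at least 22.1).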

Additional observations from a re-analysis of the deposited data

Results flagged for a closer look

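Mstn in control library 2 stood at 48.68 CPM, far from the other 4 controls at 25.6 to 28.4 CPM, by Dixon's test with a critical value of 0.71. Of 21 values tested in this way, chance marks about 5%. Without that library the log2 fold change of Mstn was -0.45 in place of -0.65. As it was the highest control, leaving it out cannot change the lowest control, which lay above all 3 SDS libraries (17.3 to 21.7 CPM).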

How the results depend on the processing

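The count of genes called, 180, became 1610 with DESeq2, 0 with the replicate block, 2077 without control library 4 and SDS library 3, and 4 to 1222 with single libraries left out (4 without control library 1, 7 without 2, 18 without 3, 122 without 4 and 10 without 5; 56, 4 and 1222 without SDS library 1, 2 and 3). Members called were 0 in each alternative except DESeq2, with 5. Whether the replicate numbers pair the samples was not settled. Same-numbered libraries had correlations of 0.31, -0.01 and 0.31 in their deviations from the group means. SDS library 1 was closest to control library 4 (0.51) and SDS library 3 to control library 3 (0.31). Muscle and fat content also enter such correlations, so they cannot decide it. The block called 0 members, and the 6 pathway genes called by library size missed the threshold under it. It compares only same-numbered libraries, which control libraries 4 and 5 lack in SDS, and leaves fewer degrees of freedom than the main fit. Under the block the log2 fold change was -1.02 for Trim54 and 0.67 for Ddit4, beside -0.89 and 0.70 in the main fit.

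Relative to Ckm, 10832 genes passed, and 6927 to 12152 with single libraries left out, the lowest without SDS library 2. The count of members called, 4, became 1 with the muscle marker reference and without control library 4 and SDS library 3, and 1 to 4 with single libraries left out. On this scale Trim54 turned to 0.040 with the replicate block and 0.24 without control library 4 and SDS library 3, and Trim63 to 0.22 without that pair. With single libraries left out, relative to Ckm, Trim54 ranged from -0.12 to 0.15 (above 0 without control library 4 or SDS library 3), Trim63 from -0.25 to 0.19 (above 0 when control library 3 or 4, or SDS library 3, was dropped), and Trim55 from -0.11 to 0.39 (below 0 without SDS library 2). By library size Klf15 ranged from -0.54 to 0.090, above 0 without SDS library 2. The cause was not tested.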
